A study of Haematococcus lacustris with 7 samples.

Results

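The annotation of *H. pluvialis* listed a splicing or messenger RNA (mRNA) processing term for 205 of 6812 annotated sequences (3.01%). A sequence was taken when the name of at least 1 of its Gene Ontology (GO) terms held one of these words: spliceosom, RNA splicing, mRNA processing, snRNP, small nuclear ribonucleoprotein, mRNA polyadenylation, mRNA cleavage or mRNA export. The match ignored case and found 28 different terms. The libraries were made from algal cells of a single strain, grown as one culture that was divided before treatment. N was the untreated control, JA1, JA6 and JA24 had received jasmonic acid (JA) for 1, 6 and 24 h, and SA1, SA6 and SA24 salicylic acid (SA) for the same times, each hormone at a dose of 25 mg/L, with 1 library per condition. The authors pooled the 7 libraries into one assembly before annotation, and 0 of the 4 columns of the table hold numbers. Levels of the splicing sequences in control, JA and SA cells were therefore not analysed here, and the report describes which sequences the pooled transcriptome contained and what their annotation lists.

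Splicing removes introns from a transcript and joins the exons. In the nucleus it is done by the spliceosome, which is built on the transcript from small nuclear ribonucleoproteins (snRNPs), each a small nuclear RNA with its proteins, and from many further proteins. RNA helicases use ATP to drive its rearrangements. The same transcripts are capped, cleaved, given a poly(A) tail and exported to the cytoplasm. Green algae such as *Chlamydomonas* have genes rich in introns, so this machinery serves most of their transcripts.

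Each identifier names a Trinity component (its number and a sub-number after c), a sequence within the component and, at its end, a number that the sources do not describe and that is taken here to count reading frames. The 205 sequences came from 184 components. They are assembled sequences and not genes, and sequences of one component share their source. Shares of the 205 are given beside the same share of all 6812 sequences. Both come from one table, so they carry no replicate error, and no test was made.

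The general term mRNA processing was listed for 140 sequences (68.3% of the 205) in 126 components. RNA splicing was listed for 112 sequences (54.6%) and spliceosomal complex, the term for the assembled machine, for 93 (45.4%). The narrower process nuclear mRNA splicing, via spliceosome was listed for 39 (19.0%). Every other term was far less frequent. U5 snRNP and cytoplasmic mRNA processing body each had 10 sequences, mRNA export from nucleus had 6, and regulation of alternative nuclear mRNA splicing, via spliceosome had 5. Of the 28 terms, 8 had 5 or more sequences and 9 had 1 sequence each.

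**Figure D1:**
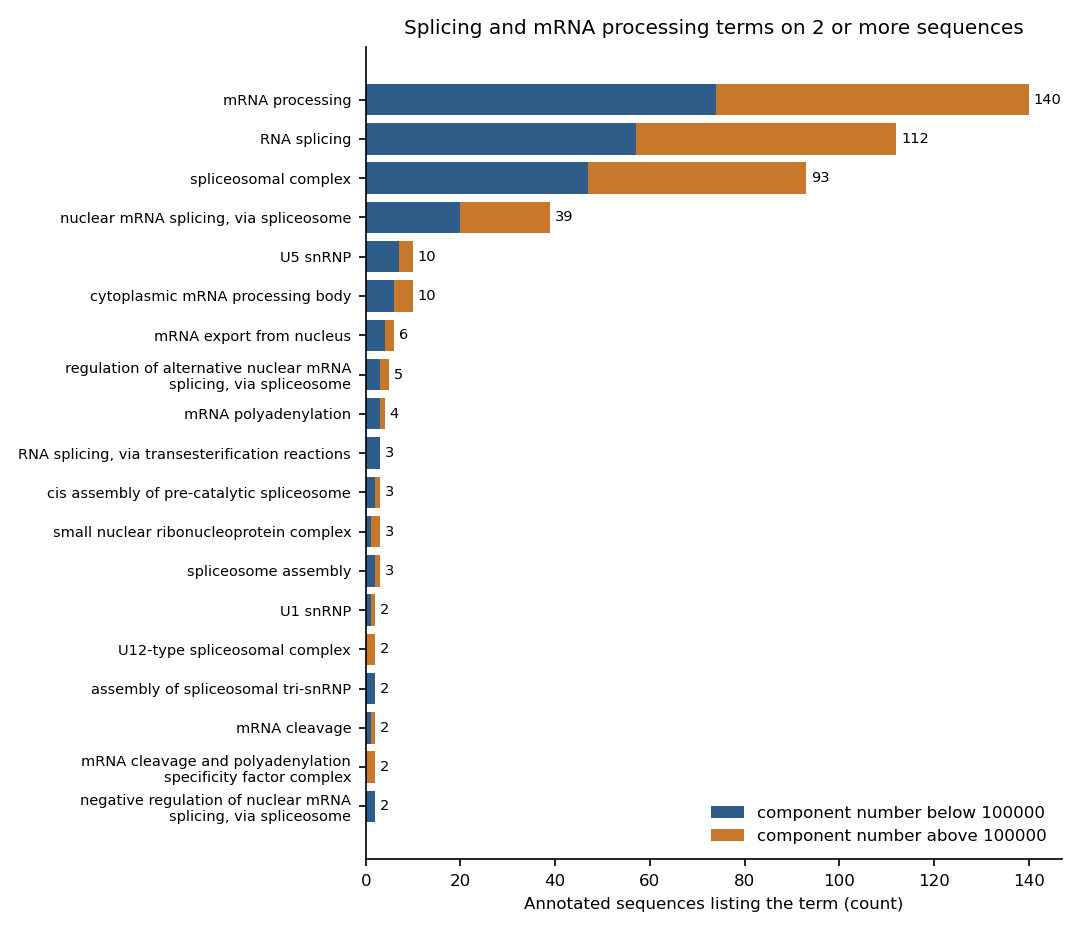
Horizontal bars give the number of annotated sequences that list each splicing or mRNA processing term, for terms on 2 or more sequences, with the part from components numbered below 100000 in blue and above 100000 in orange (the component numbers have a gap around this value). The longest bars are mRNA processing (140), RNA splicing (112), spliceosomal complex (93) and nuclear mRNA splicing, via spliceosome (39), and each of these 4 is nearly evenly divided between the colours.

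The terms came in few combinations. Only 1 of the 28 terms was listed for 33 sequences (16.1%), a pair for 101 (49.3%), 3 terms for 67 (32.7%) and 4 terms for 4 sequences. The pair RNA splicing and mRNA processing was the whole splicing annotation of 53 sequences. The same pair with spliceosomal complex was that of 48, and nuclear mRNA splicing, via spliceosome with spliceosomal complex that of 26. These 3 combinations covered 127 of the 205 sequences (62.0%). RNA splicing almost always stood with mRNA processing, in 109 of 112 sequences. It never stood with nuclear mRNA splicing, via spliceosome, which is a more specific form of it in the ontology (0 sequences with both, of 112 and 39). The sequences with the narrower term also never listed mRNA processing. A count of RNA splicing alone therefore leaves out all 39 sequences with the narrower term.

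By role, 107 sequences (52.2%) had a term on the spliceosome or an snRNP, counting processes that are named as going via the spliceosome. Of these, 99 listed the spliceosome or an snRNP as a cellular component. A splicing process was listed for 160 sequences (78.0%) and an mRNA processing term for 143 (69.8%). Cleavage and polyadenylation of the transcript end had 6 sequences, and export had 6. The roles overlapped. Of the 107 sequences in the spliceosome group 100 also had a splicing process term, and of the 160 with a splicing process 112 also had an mRNA processing term. None of the 6 export sequences was in the spliceosome group or had a splicing process term.

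Among the snRNPs, U5 was the one listed most often. U5 snRNP carries proteins at the catalytic centre of the spliceosome. Its 10 sequences all listed spliceosomal complex as well and fell into 3 kinds. In 5 of them, 3 from component number 65758 and the single sequences comp816024_c0_seq1_3 and comp1004014_c0_seq1_4, the term stood with nuclear mRNA splicing, via spliceosome, nuclear speck, RNA binding, protein binding, visual perception and response to stimulus. In comp65829_c0_seq2_21, comp65829_c1_seq1_69 and comp819900_c0_seq1_2 it stood with cis assembly of pre-catalytic spliceosome, ATP binding and ATP-dependent helicase activity. The last 2, comp56099_c0_seq2_13 and comp56099_c0_seq3_18, listed it with RNA splicing, mRNA processing, cell division and mitosis. Only the last kind came from a single component.

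The other particles had few sequences. U1 snRNP, which recognises the start of an intron, was listed for comp1468382_c0_seq1_1 and for comp16040_c0_seq1_2. The second of these was the 1 sequence with U2-type prespliceosome. U2-type spliceosomal complex, the form that removes the common class of introns, was listed for comp56177_c0_seq1_36. U12-type spliceosomal complex, the form for a rare class of introns, was listed for comp1019475_c0_seq1_1 and comp891950_c0_seq1_7, both with RNA helicase activity and ATP-dependent helicase activity. The term small nuclear ribonucleoprotein complex was listed for 3 sequences, of which comp56752_c0_seq4_26 also listed recognition of the intron end (nuclear mRNA 3'-splice site recognition). Both sequences of component 59882, comp59882_c0_seq6_32 and comp59882_c0_seq13_22, listed assembly of spliceosomal tri-snRNP, recognition of the intron start, RS domain binding and both negative and alternative splicing regulation. No sequence listed a term named U2 snRNP, U4 snRNP or U6 snRNP. A term is counted only where the table lists it by name, so this is a statement on names.

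Regulators of splicing were rare. Regulation of alternative splicing was listed for 5 sequences in 4 components. Besides the component 59882 pair these were comp55948_c0_seq1_20 with omega speckle, comp1062001_c0_seq1_8 with nuclear speck, and comp895689_c0_seq1_2, a helicase that listed 4 of the 28 terms. One sequence each listed regulation of RNA splicing (comp649693_c0_seq1_2), regulation of nuclear mRNA splicing, via spliceosome (comp60513_c0_seq1_14) and alternative nuclear mRNA splicing, via spliceosome (comp63177_c2_seq1_6, with paraspeckles and nuclear matrix). The sequence comp60513_c0_seq1_14 also listed protein serine/threonine kinase activity, mitosis and spindle pole body. RNA lariat debranching enzyme activity, which opens the looped intron after its release, was listed for comp63157_c0_seq2_34 and comp63157_c0_seq3_32 of one component.

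Cleavage and polyadenylation had 6 sequences in 6 components with unlike annotations. Polyadenylation was listed for 4. The sequence comp730484_c0_seq1_2 listed mRNA cleavage, mRNA cleavage factor complex and mRNA polyadenylation with nonsense-mediated decay and stress granule. The sequence comp64480_c0_seq1_38 listed mRNA cleavage and mRNA polyadenylation with RNA splicing, endoribonuclease activity, 5'-3' exonuclease activity and histone mRNA 3'-end processing, among 11 terms. The sequences comp3043_c0_seq1_29 (9 terms) and comp41731_c0_seq5_18 (5 terms) both listed mRNA polyadenylation with poly(A) RNA binding and nucleotide binding, and the first of them added spliceosomal complex and mRNA stabilization. The complex that recognises the poly(A) signal, the mRNA cleavage and polyadenylation specificity factor complex, was listed for comp1332389_c0_seq1_2 and comp850358_c0_seq1_6. Both are annotated as phosphatases. The first listed protein serine/threonine phosphatase activity among 30 terms, the largest number of any of the 205, with ascospore formation, cell budding and mating projection base. The second listed phosphoprotein phosphatase activity among 11 terms.

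Export had 6 sequences of 3 kinds. The sequences comp62313_c0_seq1_37 and comp63669_c0_seq1_18 had identical annotations of 8 terms, with poly(A) RNA binding, regulation of translation, nucleus and cytosol. The sequences comp64822_c0_seq5_30, comp917753_c0_seq1_3 and comp1341652_c0_seq1_1 shared 9 terms, among them DNA-directed RNA polymerase activity, transcription, nucleolus and nucleolus organization. The sequence comp10062_c0_seq1_12 listed mRNA export beside DNA topoisomerase (ATP-hydrolyzing) activity, mitotic chromosome condensation and chromatin organization. For 4 of the 6 sequences export was thus a single term among terms on transcription or chromosomes.

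A matching mRNA processing term without any matching splicing, spliceosome, end formation or export term was found in 28 sequences. Terms outside the matching words were not considered here, and 1 of the 28 listed Group I intron splicing. Cytoplasmic mRNA processing body, a site of mRNA storage and decay whose name also matches the words mRNA processing, was listed for 10 of the 28, and for 2 of the 10 it was the only matching term. Of these 10, 7 had an identical annotation of 7 terms with ATP-dependent helicase activity, mRNA transport and regulation of translation. Another pair, comp64998_c0_seq2_28 and comp1018303_c0_seq1_5, listed nonsense-mediated decay, rRNA processing and ribonuclease H activity, and comp61025_c0_seq1_26 listed stress granule and the assembly of processing bodies. Regulation of translation was listed for 12 of the 28, protein serine/threonine kinase activity for 4 and 5'-3' exoribonuclease activity with miRNA catabolic process for 3. Of the kinases, comp1876372_c0_seq1_3 and comp1735846_c0_seq1_5 listed an endoribonuclease activity and integral to membrane, and the first also listed endoplasmic reticulum unfolded protein response.

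The other terms of the 205 sequences were mainly those of RNA contact. RNA binding was listed for 110 (53.7%), against 429 of all sequences (6.30%). Protein binding was listed for 73 (35.6%, against 15.6%) and nucleotide binding for 44 (21.5%, against 1.53%). ATP binding was as frequent here as elsewhere, with 56 sequences (27.3%) against 28.1%. Some terms of the whole table lay mostly within this group. Nuclear speck, a nuclear body rich in splicing factors, was listed for 41 sequences of the table and 34 of these (82.9%) were among the 205. The figure was 7 of 10 for poly(A) RNA binding and 18 of 31 (58.1%) for mRNA transport. Nucleic acid binding was listed for 34 (16.6%, against 1.67%) and zinc ion binding for 17 (8.29%, against 5.50%). Cytoplasm went the other way, with 22 sequences (10.7%) against 18.3%, while cytosol had 15 (7.32%) against 5.17%.

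**Figure D2:**
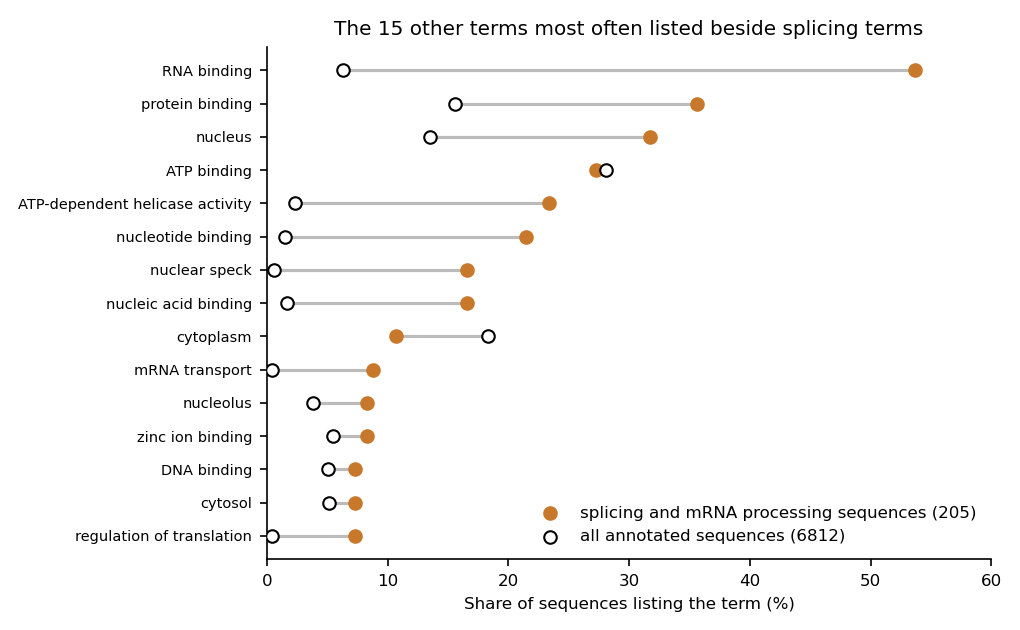
Points give the share of sequences, in percent, that list each of the 15 other terms found most often among the 205 sequences (filled) and the share among all 6812 annotated sequences (open), joined by a grey line. RNA binding stands at 53.7% against 6.30%, ATP-dependent helicase activity at 23.4% against 2.32%, ATP binding is nearly level, and cytoplasm is lower among the 205 (10.7% against 18.3%).

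Helicases formed the largest class of enzymes. A helicase term of any kind was listed for 50 of the 205 sequences (24.4%) in 44 components, against 244 of all sequences (3.58%). For ATP-dependent helicase activity the counts were 48 and 158, so that 30.4% of the sequences with this term were among the 205. All 50 listed ATP binding, and the other 6 sequences with ATP binding had no helicase term. RNA binding was listed for 27 of the 50 and the less specific nucleic acid binding for the other 23. Spliceosomal complex was listed for 15 of the 50 (30.0%) and for 78 of the other 155 sequences (50.3%). Any spliceosomal complex or snRNP term was listed for 17 helicases, a splicing process without one for 25, and neither for 8. RNA splicing was listed for 38, nucleus for 24, mRNA transport for 15 and cytoplasmic mRNA processing body for 7. With nuclear mRNA splicing, via spliceosome there was 1 helicase sequence, comp60821_c0_seq1_30. The 50 sequences held 22 different sets of terms.

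Several pairs of related terms were never listed together. Nucleus was listed for 65 sequences, but for 0 of the 93 with spliceosomal complex, 0 of the 34 with nuclear speck and 0 of the 17 with nucleolus. Nucleus stood with RNA splicing in 47 sequences and with nuclear mRNA splicing, via spliceosome in 1. RNA binding and nucleic acid binding shared 0 sequences, as did nucleotide binding and ATP binding. The same pairs shared 0 sequences in the whole table. In each of them 1 term is a more specific form of the other, or part of it, in the ontology. A nuclear place of some kind (nucleus, nucleoplasm, nucleolus, nuclear speck, Cajal body or a spliceosome or snRNP component) was listed for 180 of the 205 sequences (87.8%), whereas the term nucleus alone would give 31.7%. Cytoplasm or cytosol without any of these was listed for 5 sequences. Cytoplasmic mRNA processing body was not counted here as cytoplasm. It was listed for 10 sequences, and none of the 10 listed a nuclear place.

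**Figure D3:**
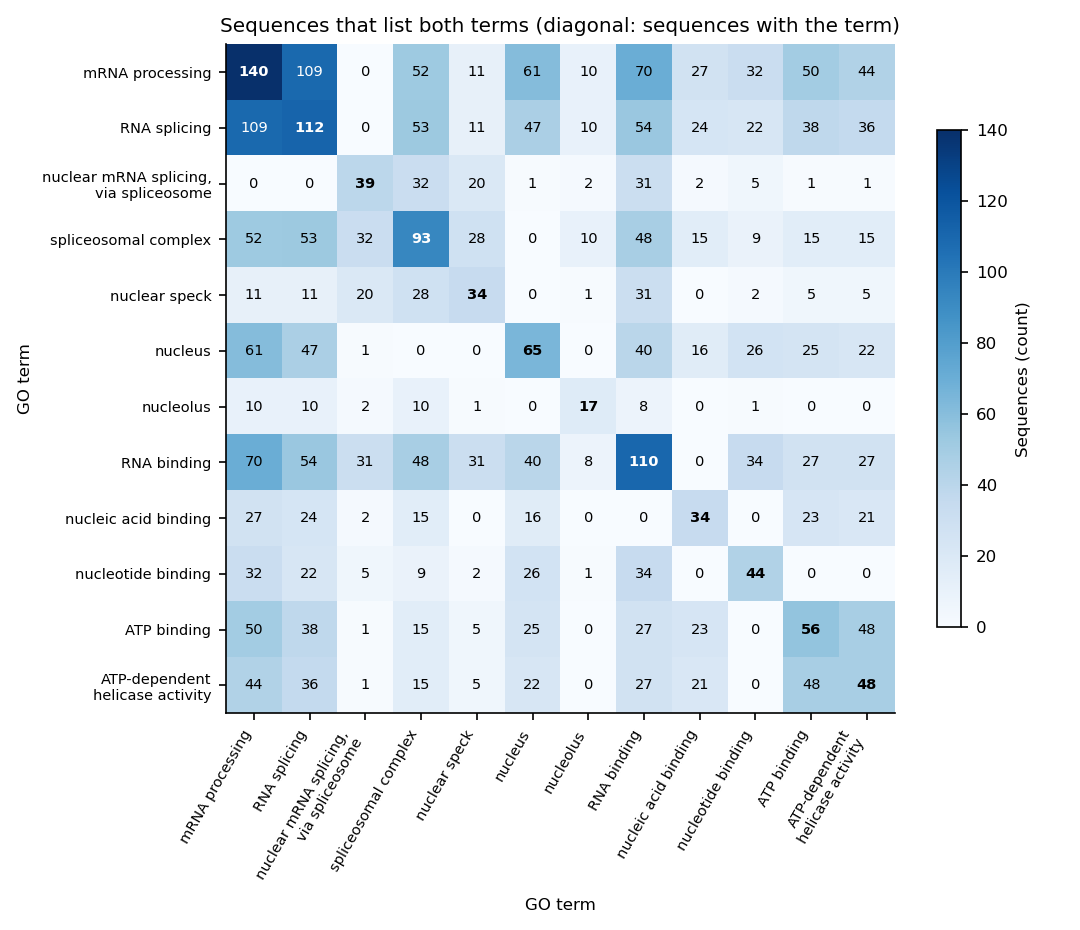
Each cell gives the number of the 205 sequences that list both the term of its row and the term of its column, for 12 terms, and the diagonal gives the number with that term, on a colour scale from 0 to 140. Nuclear speck shares 28 sequences with spliceosomal complex and 20 with nuclear mRNA splicing, via spliceosome, while the cells of nucleus with spliceosomal complex, nuclear speck and nucleolus are 0.

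Of the 34 nuclear speck sequences, 31 listed RNA binding, 28 spliceosomal complex and 20 the narrower splicing process, and 11 listed RNA splicing. Nucleolus, the site of ribosome assembly, was listed for 17 sequences (8.29%, against 3.79% of all). Of these, 10 also listed spliceosomal complex. A term on rRNA processing or ribosome biogenesis was listed for 11 sequences (5.37%, against 2.11%), such as comp407014_c0_seq1_10 and comp59263_c1_seq1_4, which had the same 6 terms with RNA splicing, spliceosomal complex and nucleolus. 

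Other RNA classes of the same table were set beside the splicing sequences: 144 sequences with rRNA processing or ribosome biogenesis, and 214 with tRNA charging, processing or modification. Helicase terms were as frequent in the ribosomal RNA class (25.7%) as among the splicing sequences (24.4%), and were listed for 0 of the 214 tRNA sequences. RNA binding terms of any kind were listed for 58.5% of the splicing, 52.1% of the ribosomal RNA and 28.5% of the tRNA sequences. Nuclear speck or Cajal body was listed for 17.1% of the splicing and 1.39% of the ribosomal RNA sequences, and nucleolus for 8.29% and 68.1%. Cytoplasm or cytosol by name was listed for 37 of the splicing (18.0%), 22 of the ribosomal RNA (15.3%) and 141 of the tRNA sequences (65.9%). Over all annotated sequences that share was 23.5%. These shares follow in part from how the classes were found. The 11 sequences with an rRNA term belong to both of their classes.

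Organelle terms were few. Plastid terms were listed for 6 sequences (2.93%, against 11% of all sequences) and mitochondrial terms for 8 (3.90%, against 11.3%). The 2 shares were 1.39% and 2.08% in the ribosomal RNA class, and 6.54% and 14% in the tRNA class. Of the 6 sequences with plastid terms, comp60694_c1_seq3_13 listed chloroplast envelope, stroma and thylakoid membrane with RNA modification and poly(U) RNA binding. The sequence comp58743_c0_seq1_12 listed chloroplast with mRNA processing and RNA binding. The sequences comp63931_c0_seq2_48, comp63931_c0_seq4_55 and comp1026505_c0_seq1_3 listed chloroplast envelope and nucleus together. Of the 8 with mitochondrion, 6 were helicase sequences that also listed nucleus. The other 2, comp1293922_c0_seq1_4 and comp1401163_c0_seq1_2, listed intron homing and endonuclease activity with electron transport terms, and the second listed Group I intron splicing. Group I introns are removed without a spliceosome. The single tRNA splicing sequence, comp1455273_c0_seq1_1, listed tRNA-intron endonuclease activity and is likewise outside the spliceosome. These sequences were named after their values were seen, as were those in the next paragraphs.

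The component numbers of the 205 sequences fell into separate ranges. In 111 sequences they lay between 3043 and 74801, and in 94 (45.9%) between 407014 and 2040171. Of all annotated sequences 50.3% were above 100000. The share above was 48.6% in the spliceosome group, 46.9% in the splicing process and mRNA processing groups, and 50.0% among the helicases. The main roles were thus found on both sides in nearly equal numbers. With 1 count per component the share of the 184 was 51.1%. The 50.3% counts sequences, so it is the counterpart of the 45.9% and not of the 51.1%. The share above 100000 over all 6164 components was not computed. The median reading frame number was 3 above and 19 below (3 and 13 over all sequences). A sequence number over 1 within the component was found for 57 of the 111 sequences below and 0 of the 94 above. Over all sequences it was found for 1530 of 3383 below and 10 of 3429 above, so the whole table was divided in the same way. The division at 100000 was known from earlier results of these data.

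**Figure D4:**
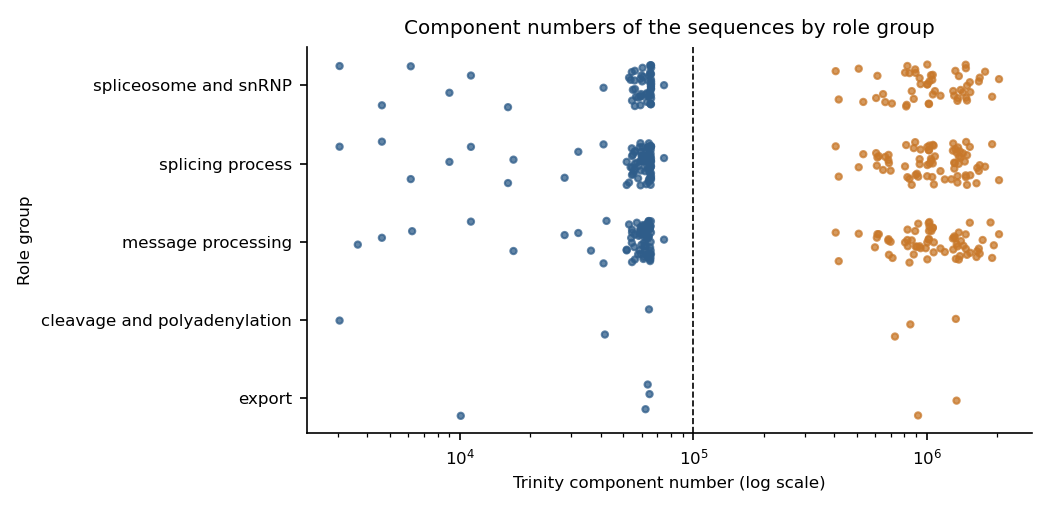
Each point is 1 sequence at its Trinity component number on a log scale, in rows by role group and spread vertically at random for sight, with the dashed line at 100000. No sequence lies between 74801 and 407014, and each role group has sequences on both sides.

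Some other terms were less evenly divided, in both directions. Of the 15 sequences with DNA binding, 13 lay above 100000 (86.7%), against 38.1% of the 344 sequences with this term in the table. Of the 11 with rRNA processing or ribosome biogenesis, 8 did (72.7%), against 56.2% of 144. Terms holding nucleus or nucleoplasm, apart from the matching ones, leaned below. They were listed for 26.6% of the sequences above and 38.7% of those below, against 12.1% and 16.3% over all annotated sequences. A word list for animal bodies (such as larval, nematode, oogenesis, muscle and heart) matched 9 of the 94 sequences above (9.57%) and 4 of the 111 below (3.60%). Over all annotated sequences the shares were 6.21% and 1.42%. The list does not hold every animal term, and visual perception and Malpighian tubule morphogenesis, for example, are outside it. The 13 sequences it matched had a median of 12 terms (quartiles 10 and 18), against 6 (5 and 8) for the other 192. Long annotations were also found for the 261 sequences it matched in the whole table, with a median of 10 (8 and 14). In 11 of the 13, nematode larval development, growth and an embryonic development term that names birth or egg hatching were listed together. The sequences comp55779_c0_seq3_5 and comp62333_c0_seq1_4 had the same 18 terms, with gonad development and positive regulation of vulval development beside RNA splicing. Land plant terms were listed for 2 sequences, comp699896_c0_seq1_2 and comp1388116_c0_seq1_2, both with photoperiodism, flowering. The source organism of a sequence was not tested.

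Many sequences had the same annotation. The 205 sequences held 113 different sets of terms, and 142 sequences (69.3%) shared their whole set with another of them, close to 68.8% over all annotated sequences. Of the 50 shared sets, 44 were shared across components and 24 had sequences both above and below component number 100000. The set on the most sequences had 5 terms (RNA binding, nuclear mRNA splicing, via spliceosome, nuclear speck, protein binding and spliceosomal complex) and 13 sequences in 11 components, 6 above and 7 below. The next was the processing body helicase set, with 7 sequences in 7 components, 3 above and 4 below. Of the 113 sets, 43 were found above 100000 only, 46 below only and 24 on both sides. A set on 1 sequence can lie on 1 side only, and 63 of the 113 were such sets. Of the 50 shared sets 48% lay on both sides, near the 49.8% of the 1310 shared sets of the whole table.

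**Figure D5:**
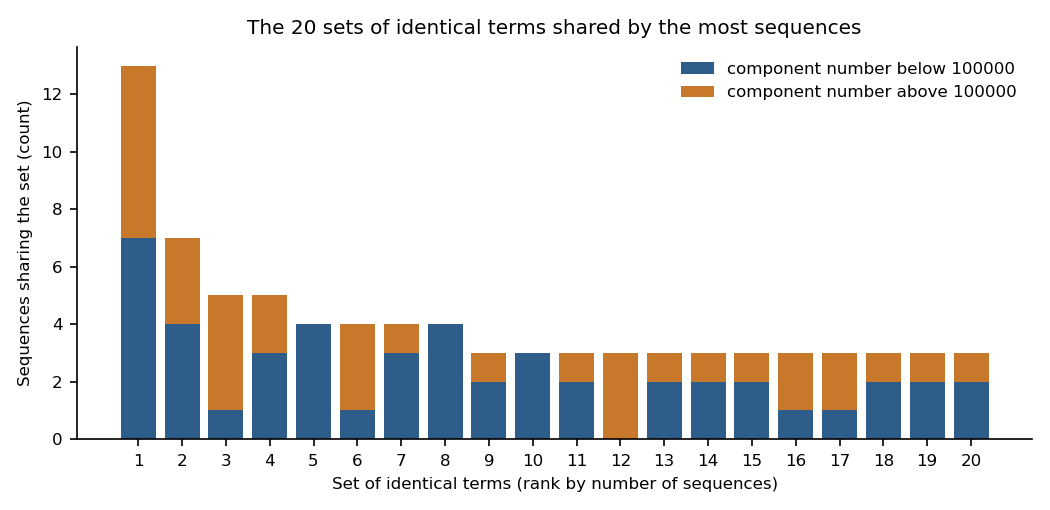
Bars give the number of sequences that share a whole set of terms, for the 20 sets on 3 or more sequences, with component numbers below 100000 in blue and above in orange. The first set has 13 sequences and the second 7, and most bars hold both colours.

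Part of the sharing was within a component number. Of 178 component numbers, 160 had 1 sequence among the 205, 15 had 2 and 3 had more. All 18 with 2 or more were below 100000, and in 13 of them the sequences listed the same terms. In the whole table too, few sequences above 100000 had a sequence number over 1 (10 of 3429). Component number 65758 had the most, with 9 sequences under 4 sub-numbers. Of these, 6 had the set of 5 terms above and 3 had the U5 snRNP set with visual perception. Component numbers 65201 and 61452 had 3 each. The 3 of 65201 listed RNA splicing, mRNA processing, protein binding and spliceosomal complex, and the 3 of 61452 were helicases with mRNA transport and nucleus, 2 of which added cell wall. Terms of the animal word list were found in comp59263_c0_seq1_2 and comp51747_c0_seq1_2, but not in comp59263_c1_seq1_4 and comp51747_c1_seq1_9, which have the same component numbers.

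Counted with the terms that selected the sequences, the annotation was somewhat longer than elsewhere. The 205 sequences had a median of 6 terms (quartiles 5 and 8, mean 7), against 5 (4 and 7, mean 5.8) over all sequences. They had 10 or more terms in 28 cases (13.7%, against 9.94%), and the least was 3 terms, in 7 sequences. The splicing and mRNA processing terms themselves made up 452 of their 1435 pairs of sequence and term (31.5%). Without these terms, which the sequences hold by selection, the median was 4, against 5 for all sequences with every term counted. Molecular function terms were listed for 195 of the 205 (95.1%) and cellular component terms for 202 (98.5%, against 83.6%). Each of them had a biological process term (against 90.9%). This was partly set by the rule, since 18 of the 28 matching terms are process terms and 10 are cellular component terms.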

How the data were processed

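RNA of *H. pluvialis* was sequenced by the authors in 7 libraries, and the reads were assembled with Trinity. That all 7 went into a single assembly is inferred from the single set of sequences reported. Reading frames came from GetORF and GO terms from Blastp and GoPipe. The deposited table holds text and no other measurement: a sequence identifier, a GO identifier, a term name and a domain letter in 39529 lines, without counts or depth per library. Comparisons between conditions planned for values per sample were not run. Sequences were matched by words in term names, and role groups, 20 lists of other terms and 2 other RNA classes were found in the same way. The members and lists were chosen with earlier results of these data known. By rule, matching terms on 5 or more sequences or on 1 sequence are named, named sequences hold the most matching terms of a role group (4 each), and component numbers with 3 or more sequences and the 15 most frequent other terms are named. Terms on 2 to 4 sequences and further sequences were named after their values were seen. Counting was tested on simulated data. A reference list of 30548 genes of *Haematococcus lacustris* matched 0 identifiers, so no gene names or sequences are given. Alternatives were 1 count per component, narrower and wider word lists, terms left out and other boundaries. Python 3.11.15, SciPy 1.17.1 and Matplotlib 3.10.9 were used.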

Additional observations from a re-analysis of the deposited data

How the results depend on the processing

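Other word lists, counts per component and boundaries gave 61 values, of which 48 stayed within 1.5 times the reported count or within the 95% Wilson interval of the reported share, and 13 moved, all of them with the narrow word list (spliceosome, snRNP and nuclear mRNA splicing only). That list gave 107 sequences, and by its construction it leaves out sequences known only from RNA splicing or mRNA processing. With it the helicase share was 15.9%, nuclear speck or Cajal body 28.0%, nucleus 3.74%, translation 1.87% and animal body 3.74%. Terms holding cytoplasm or cytosol, apart from the processing body terms, had 13.1% (19.0% in the main list). Both values include cytoplasmic transport, and without it they were 11.2% and 18.0%. Kinase and plastid shares were each 0.935%, and mitochondrion, DNA repair, land plant and fungal shares were 0%. With 1 count per component the number was 184, without single-term sequences 172, with the wide list 242. Of 28 values chosen after seeing the data 1 moved, the share above component number 100000 with 1 count per set of terms (38.1%), where a set found on both sides counts as below, which lowers the share by construction. Leaving out the processing body terms gave 202 sequences. The boundaries 80000 and 200000 gave 45.9% as before, since no component number lies between them. Values have no direction or test. No paired analysis was possible because the table holds no values per sample. A pseudocount and a filter on low values were not tried, for the same reason. The table gives no depth per library, so how depth bears on the sequences found was not tested.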

Other observations

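Terms of a wider word list were found in 37 further sequences. Of these, 4 listed intein-mediated protein splicing, which acts on proteins and not on RNA, and all 4 lay below component number 100000. Of the other 33, 17 lay above and 16 below. Among their terms were mRNA transport (13 further sequences), nuclear speck (7), Cajal body (4), RNA export from nucleus (4), mRNA splice site selection (2), snRNA pseudouridine synthesis (2) and exon-exon junction complex (2). The exon-exon junction complex marks joined exons after splicing, and 0 of its 2 sequences listed a splicing or mRNA processing term.

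Other steps in the life of an mRNA were listed both within and outside the splicing sequences, which are 3.01% of all annotated sequences. Nonsense-mediated decay, which removes messages with early stop codons, was listed for 23 sequences, of which 4 were splicing or mRNA processing sequences. These 4 are 1.95% of the 205, against 0.338% for the term over all sequences. In the ribosomal RNA class terms naming nonsense-mediated decay were more frequent, with 18 of 144 sequences (12.5%). Of the 4, comp64998_c0_seq2_28, comp1018303_c0_seq1_5 and comp1060816_c0_seq1_8 also listed rRNA processing. mRNA binding had 9 sequences, 2 of them among the 205. mRNA catabolic process had 12 and mRNA 3'-UTR binding 8, with none among the 205. Poly(A) tail shortening had 5 sequences, all below 100000, and deadenylation-dependent decay had 4, all above. RNA polymerase II carboxy-terminal domain kinase activity had 14 sequences, none among the 205. mRNA capping and RNA cap binding were listed together for comp54963_c0_seq1_17, which reached the rule through RNA splicing, via endonucleolytic cleavage and ligation.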
